A study of Haematococcus lacustris with 4 samples.

Results

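The genes described here are the 323 of 13248 genes in the table that were abundant and close to level in all 4 RNA-sequencing libraries of the green microalga Haematococcus lacustris (also called Haematococcus pluvialis). They were chosen by their measured values: each of the 4 values was at least 300 FPKM (a level counted in sequenced fragments and corrected for gene length and for library size), and the largest was less than 2 times the smallest. The unit is not stated by the submitters and was inferred from the values. Because the choice used every library, the levels of these genes, their evenness and their difference between nitrate feeds are descriptions of the choice, and no test on them is given as support.

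All 4 libraries came from strain CCAP 34/8: 2 were made at 2 mM nitrate in the culture feed and 2 at 15 mM. All cultures were grown continuously in bubbled columns under white lamps on a simulated day and night cycle, with CO2 added on demand, and nitrate in the feed is the only labelled difference. The title of the study names macrozoids and palmelloid cells, the motile and the non-motile form of the alga, but no label says which form a library held, and no label says whether replicates came from separate cultures. In such bulk libraries, fewer cells of a type and less RNA per cell cannot be told apart.

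Haematococcus is grown for astaxanthin, a red ketocarotenoid that it stores in oil droplets when nitrogen runs short or light is strong. Under nitrogen shortage algae generally change the transcripts of nitrogen uptake, photosynthesis and lipid storage, while a core of strongly expressed genes for basic cell functions is often less changed. Genes of such a core are commonly sought as references for quantitative PCR. Neither the deposited table nor the gene table used here pairs the identifiers with products: 0 of the 323 identifiers matched the 30548 entries of a gene table made on another assembly of the species. The members are therefore given by identifier, with no product, function or position.

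The steady genes made up 2.44% of the table and, being chosen at 300 FPKM or more, a large part of the summed FPKM. They held 41.3% and 39.6% of the summed FPKM of the 2 mM libraries, and 35.5% and 34.3% of that of the 15 mM libraries. The mean share was 40.4% ± 1.14 at 2 mM and 34.9% ± 0.809 at 15 mM (SD, n = 2 each). The 323 genes were 9.90% and 9.40% of the genes above 0 in the 2 mM libraries. They were 2.77% and 2.99% of those in the 15 mM libraries, since many more genes were above 0 at 15 mM. Genes above 0 numbered 3262 and 3435 at 2 mM, and 11658 and 10794 at 15 mM. The cause of this gap was not tested. Of the 100 highest genes of each library, 61 and 57 were members at 2 mM, and 57 and 58 at 15 mM.

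The sums behind these shares are given as a description, since the choice itself keeps the members' values alike in the 4 libraries. The members summed to 533683 and 519557 FPKM in the 2 mM libraries, and to 526274 and 514406 FPKM in the 15 mM libraries. The 4 sums overlapped between the nitrate feeds. All genes other than the members summed to 760030 and 791191 FPKM at 2 mM, and to 957679 and 984426 FPKM at 15 mM, without overlap. Among these, the 125 other genes that were also at 300 FPKM or more in every library, but left out because they were 2-fold or more apart, summed to 242199 and 245966 FPKM at 2 mM, and to 419653 and 465029 FPKM at 15 mM. All remaining genes together summed to 517831 and 545225 FPKM at 2 mM, and to 538026 and 519398 FPKM at 15 mM, and these sums overlapped. The split between the members and the 125 others was made on the difference itself, so where the sums differ restates that split.

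**Figure D1:**
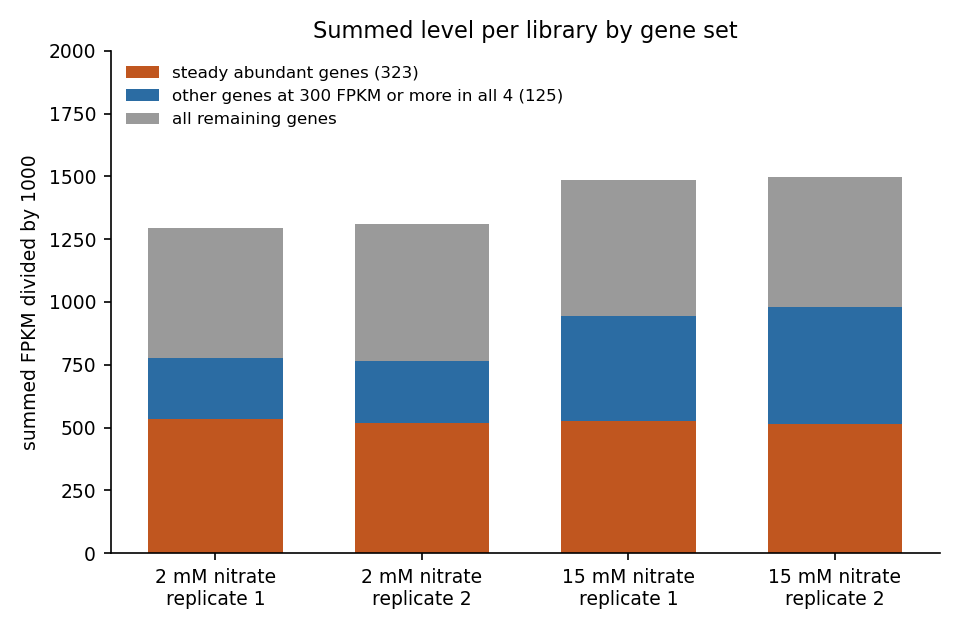
Summed FPKM divided by 1000 (y axis) in each library (x axis), split into the 323 steady genes, the 125 other genes at 300 FPKM or more in all 4 libraries, and all remaining genes. The block of the steady genes is about as tall in every library, between 514406 and 533683 FPKM, while the block of the 125 other genes is shorter at 2 mM than at 15 mM; the choice separated these blocks by how far their genes differed.

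The levels of the members spanned a wide range that was alike in the 4 libraries. The lowest, median and highest member stood at 304, 824 and 8828 FPKM in replicate 1 and at 301, 850 and 10986 FPKM in replicate 2 at 2 mM nitrate. The same values were 303, 819 and 10971 FPKM in replicate 1 and 303, 773 and 9050 FPKM in replicate 2 at 15 mM nitrate. By the mean over the 4 libraries, 77 members lay under 500 FPKM, 112 at 500 to 1000 FPKM, 51 at 1000 to 2000 FPKM, 64 at 2000 to 5000 FPKM and 19 at 5000 FPKM or more. Those 19 genes held between 24.0% and 25.1% of the members' summed FPKM, depending on the library.

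The 5 most abundant members were measured at 7170 FPKM or more in every library. HaLaN_17963 had 8828 and 10986 FPKM in the 2 mM libraries, against 10971 and 9050 FPKM in the 15 mM libraries. Its 2 replicates differed more within each nitrate feed than its means differed between feeds, with a log2 ratio of the means (2 mM over 15 mM) of -0.01. HaLaN_18351 had 8311 and 8085 FPKM at 2 mM, against 8581 and 8827 FPKM at 15 mM. HaLaN_08771 had 8163 and 7974 FPKM at 2 mM, against 8269 and 8734 FPKM at 15 mM. In both genes the 2 mM values lay just under the 15 mM values, with log2 ratios of -0.09 and -0.08. HaLaN_21192 had 8520 and 7499 FPKM at 2 mM, against 7773 and 7487 FPKM at 15 mM. HaLaN_00508 had 7170 and 7614 FPKM at 2 mM, against 7826 and 7312 FPKM at 15 mM. The ranges of the nitrate feeds overlapped for HaLaN_21192 and HaLaN_00508, and the ranges over the 4 libraries overlapped between neighbours in this order, apart from HaLaN_17963 and HaLaN_18351, whose ranges met at about 8828 and 8827 FPKM.

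The 5 most even members lay at very different levels. HaLaN_22743, the most even, had 2700 and 2730 FPKM in the 2 mM libraries, against 2659 and 2696 FPKM in the 15 mM libraries. Its largest value was 1.03 times its smallest, and its coefficient of variation over the 4 libraries was 1.07%. HaLaN_17429 had 566.2 and 566.4 FPKM at 2 mM, against 555 and 573 FPKM at 15 mM. The 2 mM values of HaLaN_17429 lay between its 15 mM values. HaLaN_16606 had 614 and 585 FPKM at 2 mM, against 609 and 594 FPKM at 15 mM. HaLaN_29767 had 2992 and 2980 FPKM at 2 mM, against 2830 and 2958 FPKM at 15 mM. HaLaN_10271 had 1102 and 1157 FPKM at 2 mM, against 1143 and 1090 FPKM at 15 mM. For HaLaN_29767 both 2 mM values lay above both 15 mM values, and for HaLaN_16606 and HaLaN_10271 the ranges overlapped. With 2 libraries per feed, the order of these genes by evenness is not resolved.

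**Figure D2:**
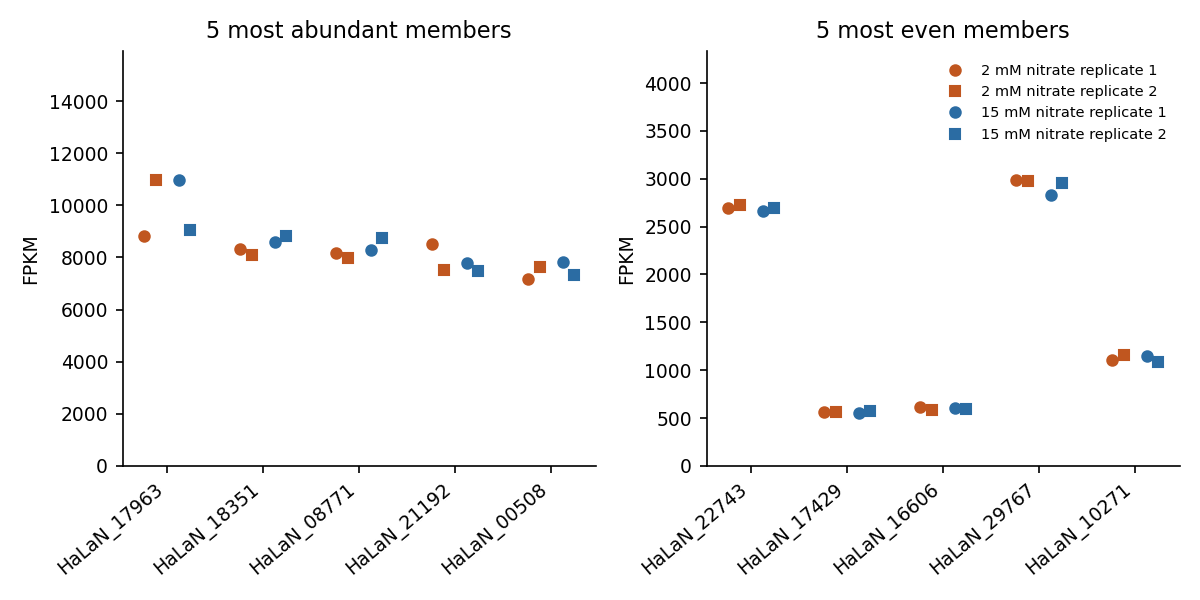
FPKM (y axis) in each of the 4 libraries for the 5 most abundant members (left) and the 5 most even members (right), with 2 mM libraries in orange, 15 mM libraries in blue, replicate 1 as circles and replicate 2 as squares. The most even members sit at about 565 to 2940 FPKM on average, below the most abundant ones, and HaLaN_17963 shows its spread within each nitrate feed.

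Over all members, the largest value was a median of 1.39 times the smallest. This ratio was under 1.1 for 17 members, 1.1 to 1.2 for 37, 1.2 to 1.4 for 113, 1.4 to 1.6 for 74, 1.6 to 1.8 for 52 and 1.8 to 2 for 30. The coefficient of variation over the 4 libraries had a median of 14.8% and reached 32.7%. Among members, the 19 at 5000 FPKM or more were the most even class, with a median ratio of 1.14, against 1.36 to 1.46 in the 4 lower classes. This ranking leaves out genes that were 2-fold or more apart. Members were 55.9% of the 34 genes at the level that averaged 5000 to 20000 FPKM, against 55.4% to 97.5% in the lower classes. The replicates of the 19 members were also closest together. Over the genes of this class, the log2 ratio of replicate 1 to replicate 2 had an SD of 0.17 at 2 mM and 0.15 at 15 mM, against 0.35 and 0.20 in the class under 500 FPKM.

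Single libraries of different feeds differed more than replicates did, within the limit set by the choice. Across members, the median fold between a 2 mM and a 15 mM library was 1.19 to 1.23 over the 4 such pairs. It was 1.13 between the 2 mM replicates and 1.098 between the 15 mM replicates. Within 1.2-fold lay 137 to 170 members for pairs of different feeds, 210 for the 2 mM replicates and 253 for the 15 mM replicates. Spearman's rho across members was 0.90 to 0.92 for pairs of different feeds, 0.95 for the 2 mM replicates and 0.98 for the 15 mM replicates. These correlations are across genes, which are not independent replicates, and all pairs share the same choice of genes. The 2 mM replicates were farther apart than the 15 mM replicates in 190 of the 323 members. This lean was not particular to the members. The log2 ratio of replicate 1 to replicate 2 had an SD of 0.29 at 2 mM and 0.21 at 15 mM over the members. It was 0.37 and 0.32 over the 125 other abundant genes, and 0.83 and 0.44 over all genes above 0 in all 4 libraries.

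**Figure D3:**
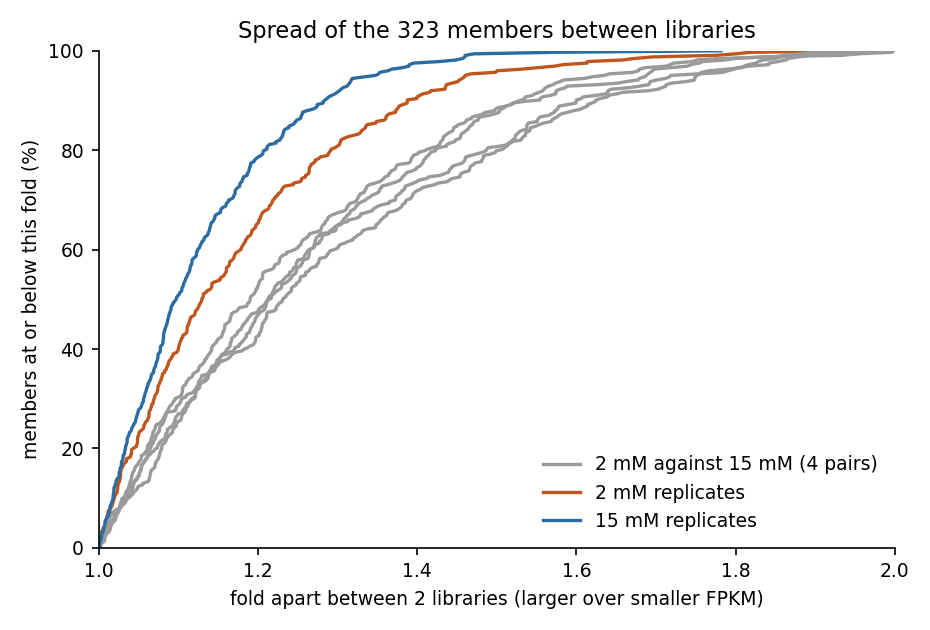
Cumulative share of the 323 members (y axis, percent) against the fold between 2 libraries (x axis, larger over smaller FPKM), for the 4 pairs of different nitrate feeds (grey), the 2 mM replicates (orange) and the 15 mM replicates (blue). The grey curves lie lowest, with 42.4% to 52.6% of the members within 1.2-fold, against 65.02% for the 2 mM replicates and 78.3% for the 15 mM replicates.

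On the table's own scaling, the small differences between feeds ran in both directions. The mean at 2 mM was above that at 15 mM in 170 members and below it in 153, and 164 members had means within 1.2-fold of each other. The median log2 ratio of the means (2 mM over 15 mM) was 0.04, with 5% of the members below -0.63 and 5% above 0.60. This balance turned with the scaling: the median was 0.23 with each library scaled to the same summed level, and -0.51 with libraries centred by the median of genes listed above 0 everywhere. In 108 members (33.4%) both 2 mM values lay above both 15 mM values, with a median log2 ratio of 0.37. Among all 11815 genes tested, with a mean of at least 1 FPKM, 10.1% were higher at 2 mM without overlap. In 86 members (26.6%) both 2 mM values lay below both 15 mM values, with a median log2 ratio of -0.39, and 53.3% of all genes tested were lower without overlap. Most genes of the table were listed at 0 in the 2 mM libraries, so a closer background is the 2148 genes above 0 in all 4 libraries, of which 49.7% were higher and 19.1% lower without overlap. In the other 129 members the feeds overlapped. The median level over the 4 libraries was 891 FPKM for the members higher at 2 mM, 836 FPKM for those lower and 759 FPKM for those that overlapped.

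The members with the greatest differences stood near the limit of the choice. HaLaN_24571 had 1467 and 1267 FPKM at 2 mM, against 843 and 773 FPKM at 15 mM. HaLaN_14077 had 1214 and 1291 FPKM at 2 mM, against 822 and 659 FPKM at 15 mM. Both had a log2 ratio of 0.76, the highest among the members. HaLaN_27460 had 616 and 618 FPKM at 2 mM, against 1043 and 1134 FPKM at 15 mM. HaLaN_28140 had 699 and 798 FPKM at 2 mM, against 1398 and 1227 FPKM at 15 mM. Their log2 ratios were -0.82 and -0.81, the lowest among the members, and in all 4 genes the feeds did not overlap.

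A limma fit on log2(FPKM + 1) over the whole table, with Benjamini-Hochberg adjustment over all 11815 genes, called 58 members at an adjusted p under 0.05, 32 higher and 26 lower at 2 mM. Of all genes tested, 49.0% were called, 3.97% higher and 45.1% lower. Of the 2148 genes above 0 in every library, 24.3% were called, 17.8% higher and 6.52% lower, beside 9.91% of the members higher and 8.05% lower. The choice of members used the same values, so nothing is read from these counts. The called members differed by 0.15 to 0.82 on the log2(FPKM + 1) scale, in either direction. The number of members called was 8 without the intensity trend, in a fit that called 49.5% of all genes tested. It was also lower in each fit with 1 library left out, which leaves 1 library in a feed. The direction of the members' calls also depended on the scaling of the libraries: with each library scaled to the same summed level it was 57 higher and 12 lower, after quantile normalization 8 higher and 28 lower, and with libraries centred by the median of genes listed above 0 everywhere 0 higher and 124 lower. Over all 11815 genes tested, the same fits called, in this order, 568 higher and 5269 lower, 571 higher and 1198 lower, and 299 higher and 5538 lower.

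Members were set beside the 125 other genes that reached 300 FPKM in all 4 libraries, so that 448 genes met the level and 72.1% of them were members. Nearly all of those others had replicates close together: in 123 of the 125 both replicate pairs were less than 2-fold apart, and in 2 the 2 mM replicates were not. Of the others, 51 had a higher and 74 a lower mean at 2 mM than at 15 mM, with log2 ratios between -2.64 and 4.22. Members were 76.2% of the genes at the level that averaged 500 to 1000 FPKM, 55.4% at 1000 to 2000 FPKM, 67.4% at 2000 to 5000 FPKM and 55.9% at 5000 to 20000 FPKM. At 300 to 500 FPKM they were 77 of 79, but a gene with such a mean and no value under 300 has little room to be 2-fold apart. From the side of each feed, 684 genes were at 300 FPKM or more in both 2 mM libraries and 605 in both 15 mM libraries, and members made up 47.2% and 53.4% of these. Among the 684 genes, 13 had the value 0 in both 15 mM libraries. Among the 605 genes, 53 had it in both 2 mM libraries.

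**Figure D4:**
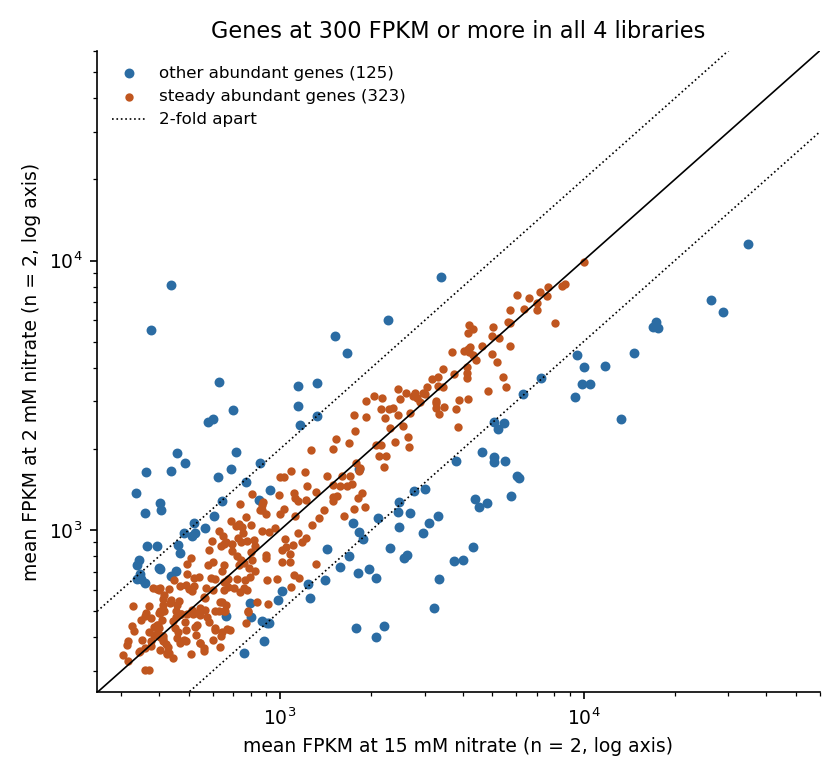
Mean FPKM at 2 mM nitrate (y axis, log scale) against mean FPKM at 15 mM nitrate (x axis, log scale) for the 448 genes at 300 FPKM or more in all 4 libraries, with the 323 members in orange and the 125 others in blue. The solid line marks equal means and the dotted lines a 2-fold difference; by the choice the members fill the band along the solid line, and the others reach log2 ratios of -2.64 and 4.22.

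Evenness between feeds was also looked at for gene sets chosen on part of the libraries. For this, genes at 300 FPKM or more were chosen in 1 library of each feed only, and the other library of each feed was then read. Among genes less than 2-fold apart in the 2 libraries of the choice (364 to 412 genes over the 4 possible choices), 85.7% to 97.3% were also less than 2-fold apart in the 2 other libraries. Their median fold there was 1.22 to 1.30, leaving out 4 to 11 genes at 0 in a library. Among genes 2-fold or more apart in the libraries of the choice (96 to 117 genes), 7.29% to 35.9% were less than 2-fold apart in the others, with a median fold of 2.34 to 3.46. At the stricter standard of also reaching 300 FPKM in both other libraries, 79.9% to 90.4% of the genes chosen as less than 2-fold apart met the limits there, against 4.17% to 35.9% of those chosen as 2-fold or more apart. Each set chosen as less than 2-fold apart contains all 323 members, which meet the limits in every library by their own choice. No set chosen as 2-fold or more apart can contain a member. Much of the gap between the shares was therefore fixed in advance. In the sets chosen as less than 2-fold apart, 352 to 367 genes were also less than 2-fold apart in the other libraries. Of these, 323 were the members. At the stricter standard 329 to 336 genes met the limits, and again 323 of them were the members. The shares describe the sets chosen on 2 libraries and are no test of the members. The 4 choices reuse the same libraries and are not independent of each other. The lowest share of 85.7% was read in replicate 1 at 2 mM and replicate 2 at 15 mM, and the highest of 97.3% in replicate 2 at 2 mM and replicate 1 at 15 mM.

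**Figure D5:**
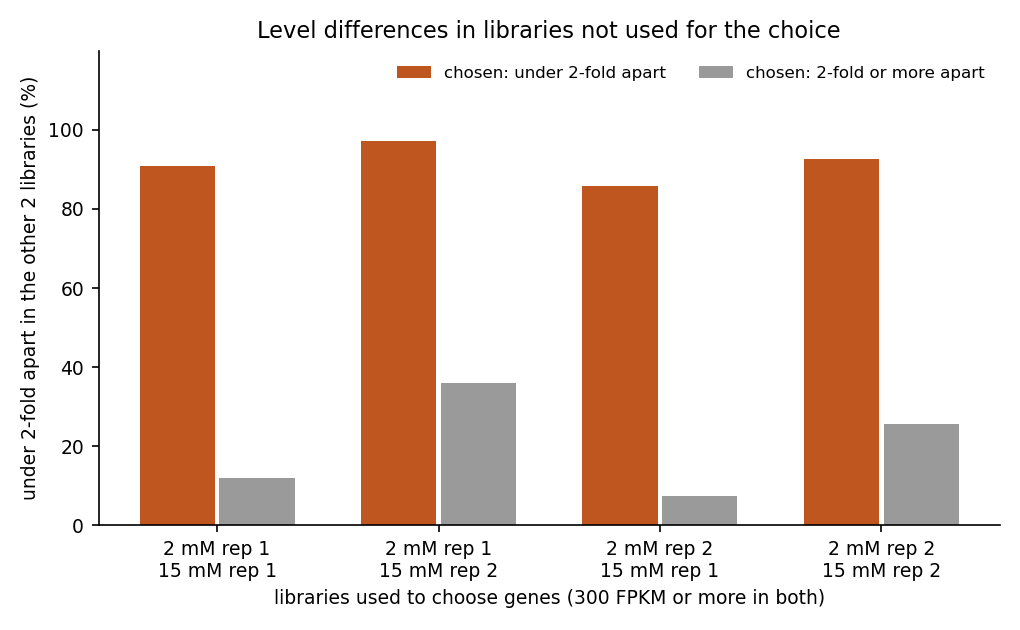
Percent of genes less than 2-fold apart (y axis) in the 2 libraries not used for the choice, for each of the 4 choices of 1 library per feed (x axis), with genes chosen as less than 2-fold apart in orange and as 2-fold or more apart in grey. The orange bars stand at 85.7% to 97.3% and the grey bars at 7.29% to 35.9%. Every orange set contains all 323 members and no grey set can contain one, so much of this gap was fixed by the choice.

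The limits of the choice cut through a continuous range. HaLaN_33031, the member nearest the lower level, had 413 and 301 FPKM at 2 mM, against 590 and 538 FPKM at 15 mM. HaLaN_16578 met the fold limit but had 298 and 341 FPKM at 2 mM, against 351 and 328 FPKM at 15 mM, and so was left out by its lowest value, although its largest value was 1.18 times its smallest. HaLaN_28140 lay nearest inside the fold limit, with a ratio just under 2, and HaLaN_25500 nearest outside it, with 913 and 729 FPKM at 2 mM, against 479 and 456 FPKM at 15 mM. In all, 42 members had a lowest value under 350 FPKM, and 44 genes met the fold limit with a lowest value of 250 FPKM or more but under 300. A further 30 members had a ratio of 1.8 or more, and 17 genes at the level had a ratio of 2 to 2.2.

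The identifiers gave the one property that the choice did not use. Members were spread through the numbering, making up 2.06% to 2.88% of the table's genes in each block of 5000 numbers. None of the 24 identifiers with a letter t before the number was a member, but members were 2.44% of the table, and 24 identifiers are too few to read this as a difference. A total of 26 members formed 13 pairs with consecutive numbers, and whether consecutive numbers mean neighbouring genes is not given in the sources used here. In 8 of the 13 pairs (61.5%) the mean levels were within 2-fold of each other, against 45.8% of all 52003 pairs of members. In 7 of the 13 pairs (53.8%) both genes leaned the same way between feeds, against 49.98% of all pairs of members. Again, 13 pairs are too few to read either share as a difference from all pairs.

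The levels of the consecutive pairs ranged from almost equal to several-fold apart. HaLaN_02072 had 445 and 405 FPKM at 2 mM, against 611 and 615 FPKM at 15 mM. Its successor HaLaN_02073 had 415 and 444 FPKM at 2 mM, against 651 and 689 FPKM at 15 mM. Both genes of this pair were lower at 2 mM without overlap. HaLaN_07826 had 894 and 982 FPKM at 2 mM, against 827 and 627 FPKM at 15 mM. Its successor HaLaN_07827 had 840 and 906 FPKM at 2 mM, against 708 and 567 FPKM at 15 mM. Both were higher at 2 mM without overlap, and both had the higher value in replicate 2 at 2 mM and in replicate 1 at 15 mM. HaLaN_06751 had 7914 and 7406 FPKM at 2 mM, against 7287 and 7057 FPKM at 15 mM. Its successor HaLaN_06752 had 6597 and 6486 FPKM at 2 mM, against 6255 and 7849 FPKM at 15 mM. The feeds overlapped in HaLaN_06752 but not in HaLaN_06751. This pair leaned opposite ways, with log2 ratios of the means of 0.095 for HaLaN_06751 and -0.108 for HaLaN_06752. The pair farthest apart, HaLaN_30275 and HaLaN_30276, averaged 421 and 2070 FPKM over the 4 libraries, a 4.92-fold difference in level. Reads shared between near-identical neighbouring copies could give such genes like values, and this was not tested.

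One member carried a value that had been divided by 1000. HaLaN_17110 had 1271 and 1384 FPKM at 2 mM, against 1454 and 1531 FPKM at 15 mM, after the value of replicate 2 at 2 mM, a whole number in the table, had been divided by 1000. Without the division it would not be a member, and the set would hold 322 genes.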

How the data were processed

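RNA sequencing values of 4 libraries were analysed, grouped by the nitrate named in the sample titles. Libraries were made from total RNA, while the molecule is labelled polyA RNA, per the labels' protocols. Per the submitters' processing notes, the tools were FastQC, HISAT2, StringTie and limma. Settings, genome build and annotation: not given in the sources used here. Deposited was 1 table with 1 value per gene and library, which was treated as FPKM because the values were not negative, had up to 6 decimals and summed to unequal totals above those of TPM. No read step was found: of 681 genes above 0 and under 5 FPKM at 15 mM, at most 5 shared a ratio between the replicates. The sequencing depth is therefore unknown, and no interval or detection floor is given. Of the deposited values, 25 were whole numbers above 0 and were divided by 1000, as the rule for the members states. FPKM are relative to each library's total, so a steady FPKM is not a steady amount of RNA per cell.

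Members, lists and comparisons were chosen with earlier results of these data known. The reading of gene sets chosen on part of the libraries was added after the data were seen. The fit used limma 3.58.1 in R 4.3.3 (lmFit, eBayes with intensity trend, two-sided) on log2(FPKM + 1), pseudocount 1, for genes that averaged 1 FPKM or more, at an adjusted p under 0.05, and was tested on simulated data. Since no label names separate cultures, the p-values cover the spread of these samples alone, which may be technical. Named members are the 5 most abundant, the 5 most even, the 2 with the highest and the 2 with the lowest log2 ratio, those nearest each limit, the one with a divided value and consecutive identifiers, of which 4 pairs are named. Gene lists were not used, because 0 of 13248 identifiers matched a name. Alternatives changed the level, the fold limit, the scaling, the pseudocount, the filter and the libraries. Other values were computed in Python 3.11.15.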

Additional observations from a re-analysis of the deposited data

How the results depend on the processing

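The set held 323 genes as reported, 208 with a lower level of 500 FPKM and 210 with a fold limit of 1.5. It held 248 to 443 under the other levels and the fold limit of 3, and 331 to 367 when 1 library was left out. With each library scaled to the same summed level it held 316 genes, of which 296 were the reported members, and with libraries centred by the median of genes listed above 0 everywhere 266, of which 221 were. The median log2 ratio of the members was 0.04 as reported, 0.23 with the same summed level, -0.51 after that centring and 0.0019 to 0.071 when 1 library was left out. The median of all genes tested moved from -2.41 to -2.33 with the same summed level, -2.71 after centring and 0.24 after quantile normalization. Of the members, 58 were called as reported, 124 after centring, 38 when the test was limited to genes listed above 0 everywhere, 36 after quantile normalization, 8 with no intensity trend, 35 with the replicate block and 13 to 27 when 1 library was left out. Of all genes tested, 5795 were called as reported, 640 when the test was limited to genes listed above 0 everywhere, 2887 with a mean of at least 10 FPKM and 1769 after quantile normalization. The first 2 of these alternatives tested fewer genes. For the other shifts the cause was not tested. The members' share of summed FPKM was 51.2% at 2 mM and 11.3% at 15 mM as deposited, 36.3% and 31.2% with a level of 500 FPKM, and 29.8% and 25.5% with a fold limit of 1.5. As deposited, the undivided value of the member HaLaN_17110 enters the members' sum at 2 mM, and the undivided values of other genes enter the totals. Replicate numbers are shared by both feeds, but the deviations of libraries with the same number from their group means had a correlation of -0.00094 over the tested genes and 0.107 over the members. With 2 numbers this does not settle whether they pair the libraries, and no label says that they do. With 1 library left out, the lone library of its feed is assumed to vary like the others. The unknown depth leaves the counting error of each value unknown.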
